A study of Mus musculus with 14 samples.

Results

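The open chromatin of green cones sorted a single time was set against that of Nrl-/- photoreceptors, in 2 ATAC-seq libraries of each. Of the 53204 elements of 200 bp counted in the series, 50605 passed the filter on low counts in these 4 libraries and make up the comparison. Green cones came from Opn1mw-GFP mice and Nrl-/- photoreceptors from Nrl-eGFP;NrlKO mice. The latter lack the rod factor NRL and carry GFP under Nrl promoter sequence. All mice were on a C57BL/6 background and 8 weeks old, and GFP-positive cells were sorted from trypsin-dissociated retinas. The series also holds 2 libraries of rods from Nrl-eGFP mice, 2 of green cones sorted 2 times (double-sorted), and RNA-seq of rods and Nrl-/- photoreceptors with 3 libraries each. These other libraries describe the elements and do not enter the test. The Nrl-/- cells are labelled blue cones, but they arise where rods would have formed. According to the study's tables, replicates were biological, and each library pooled the retinas of several mice, with more mice and fewer sorted cells for green cones than for Nrl-/- photoreceptors. A sequencing metrics table there lists green replicate 1 under the Nrl-eGFP;Nrl-/- line, whereas another table and the labels give Opn1mw-GFP, which was followed here.

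NRL is a basic leucine zipper factor of the MAF family that directs photoreceptor precursors to the rod fate and, with NR2E3, keeps cone genes off in rods. Without it the retina is filled with cells that resemble cones and express S opsin (Opn1sw). Most native mouse cones carry M opsin (Opn1mw), alone or with S opsin, in a gradient across the retina. ATAC-seq inserts adapters into accessible DNA, so reads pile up at active promoters and enhancers. Rods vastly outnumber cones, so any rod that passes a cone sort brings rod-open DNA into the library.

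Counts in elements totalled 3940065 and 2131701 in single-sorted green cones, against 2402513 and 4318961 in Nrl-/- photoreceptors. The 2 mates of a read pair appear to have been counted separately (62.6% to 73.1% of the values above 0 in these 4 libraries were even). Levels are given as CPM, counts brought to a common library size with TMM factors over the 8 ATAC-seq libraries. On the log2 scale, levels across elements correlated at r = 0.90 between the green libraries, 0.92 between the Nrl-/- libraries and 0.76 to 0.81 between libraries of different groups. These are descriptions over 50605 elements that are not independent. Most elements did not pass the test. By edgeR's quasi-likelihood test against a 2-fold change (glmTreat, log2 fold change of 1, Benjamini-Hochberg adjusted p under 0.1), single-sorted green cones were more open at 927 elements (1.83% of those tested) and Nrl-/- photoreceptors at 522 (1.03%), or 2.86% in either direction. The median log2 fold change, green over Nrl-/-, was 3.10 in the former set and -2.75 in the latter, beside -0.01 over all elements tested. The balance of the calls depended on the scaling: after a loess correction of each library against abundance, 400 elements were green-higher and 731 Nrl-/--higher, which moved the green share of the calls from 64.0% to 35.4%. DESeq2 called 96 and 53, and a fit with all 8 libraries 284 and 118. Both sets also shrank without single libraries, to 681 and 496 without green replicate 1 (the library listed under 2 lines), to 424 and 431 without green replicate 2 and to 649 and 191 without Nrl-/- replicate 2.

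**Figure D1:**
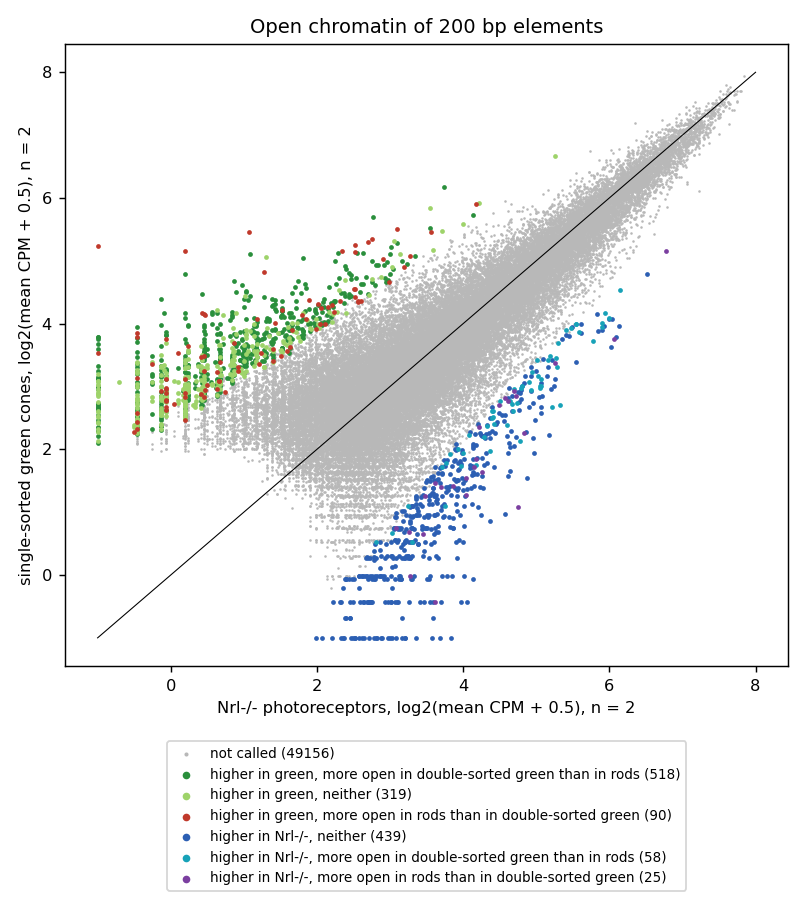
Mean level of each element in Nrl-/- photoreceptors (x axis) and in single-sorted green cones (y axis), both as log2(mean CPM + 0.5) of 2 libraries, with the line of equal level. Grey points are the 49156 elements not called; the 927 elements more open in green cones lie above the line and the 522 more open in Nrl-/- photoreceptors below it, coloured by the separate test of rods against double-sorted green cones.

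The following elements are shown because the results turn on them: an intron element of Nrl and the Gnat1 promoter, which had many reads in rods and single-sorted green cones and few or none in Nrl-/- photoreceptors; 3 distal elements open in green cones and not in rods (in an intron of Tnik, in an intron of Iqgap1 and upstream of Sall1); and 3 elements more open in Nrl-/- photoreceptors (in an intron of Notch1, upstream of Fezf1 within Cadps2, and upstream of Opn1sw). Each is the plus strand of GRCm38 as RefSeq gives it. Capitals mark every match on either strand to TGANTCA (bound by basic leucine zipper factors), AGGTCA (the core site of nuclear receptors), TAATTA (bound by Q50 homeodomain factors such as RAX) and TGCTGAC (bound by MAF factors such as NRL).
Nrl intron, chr14:55521184-55521383: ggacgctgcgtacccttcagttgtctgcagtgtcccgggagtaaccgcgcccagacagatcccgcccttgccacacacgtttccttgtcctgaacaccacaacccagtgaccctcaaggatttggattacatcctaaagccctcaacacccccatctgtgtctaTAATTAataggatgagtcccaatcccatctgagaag
Gnat1 promoter, chr9:107679619-107679818: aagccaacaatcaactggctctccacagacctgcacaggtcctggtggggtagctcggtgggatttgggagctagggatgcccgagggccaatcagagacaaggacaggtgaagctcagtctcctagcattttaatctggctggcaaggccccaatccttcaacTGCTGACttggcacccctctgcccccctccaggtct
Tnik intron, chr3:28603730-28603929: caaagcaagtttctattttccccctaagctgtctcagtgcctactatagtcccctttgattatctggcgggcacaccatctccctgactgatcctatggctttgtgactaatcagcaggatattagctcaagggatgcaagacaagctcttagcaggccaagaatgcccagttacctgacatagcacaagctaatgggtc
Iqgap1 intron, chr7:80753796-80753995: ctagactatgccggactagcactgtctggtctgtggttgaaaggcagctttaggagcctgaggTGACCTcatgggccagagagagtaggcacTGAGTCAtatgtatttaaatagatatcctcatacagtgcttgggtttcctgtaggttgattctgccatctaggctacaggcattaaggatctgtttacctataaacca
Sall1 upstream, chr8:89299788-89299987: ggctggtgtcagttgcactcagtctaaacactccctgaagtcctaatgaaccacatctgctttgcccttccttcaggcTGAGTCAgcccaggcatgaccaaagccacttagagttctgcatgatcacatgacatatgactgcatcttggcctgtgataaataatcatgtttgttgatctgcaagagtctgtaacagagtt
Notch1 intron, chr2:26500598-26500797: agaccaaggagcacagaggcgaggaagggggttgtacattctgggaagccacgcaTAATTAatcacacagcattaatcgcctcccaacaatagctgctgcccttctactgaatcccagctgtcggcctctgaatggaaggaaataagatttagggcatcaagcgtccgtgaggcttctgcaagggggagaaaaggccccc
Fezf1 upstream, chr6:23374832-23375031: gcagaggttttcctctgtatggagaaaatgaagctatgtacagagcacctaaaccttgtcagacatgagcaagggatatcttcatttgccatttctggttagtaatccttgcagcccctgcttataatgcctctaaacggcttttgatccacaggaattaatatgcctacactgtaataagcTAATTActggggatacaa
Opn1sw upstream, chr6:29388127-29388326: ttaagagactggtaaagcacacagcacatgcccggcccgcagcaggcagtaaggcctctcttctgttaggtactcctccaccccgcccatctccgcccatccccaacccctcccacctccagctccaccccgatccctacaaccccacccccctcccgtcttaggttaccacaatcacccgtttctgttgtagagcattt
The Tnik intron and the Opn1sw upstream element hold none of these letters, the Iqgap1 intron holds 2 matches, and the other 5 elements hold 1 each.

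The called elements were next sorted by a test that shares no library with the comparison, rods against double-sorted green cones, in which 11895 of 47360 elements (25.1%) were called: 3044 (6.43%) more open in rods (rod-open) and 8851 (18.7%) more open in double-sorted green cones (cone-open). These counts depended on the fit: without double-sorted replicate 4 they were 8006 and 9025, without rod replicate 1 they were 1051 and 4464, without rod replicate 2 they were 978 and 4927, without double-sorted replicate 3 they were 3225 and 5605, and with DESeq2 they were 552 and 4410. Among the elements tested here, 2745 were rod-open and 8458 cone-open. Of the 927 elements more open in single-sorted green cones, 518 were cone-open, 90 rod-open and 319 neither, of which 133 were tested without a call and 186 had counts too low in rods and double-sorted green cones to be tested. These 518 are 6.12% of all cone-open elements tested, and the 90 are 3.28% of all rod-open ones, beside 1.83% of all elements. Of the 522 elements more open in Nrl-/- photoreceptors, 58 were cone-open, 25 rod-open and 439 neither, of which 127 were tested without a call and 312 were too low to be tested. These 58 are 0.69% of all cone-open elements tested, and the 25 are 0.91% of all rod-open ones, beside 1.03% of all elements. The larger part of the green-higher elements were thus more open in double-sorted green cones than in rods, whereas most Nrl-/--higher elements had too few counts in either sort for that test.

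The levels behind these sets follow in part from how the sets were chosen and are given as a description. Over the 518 cone-open elements the median level was 9.52 and 12.8 CPM in single-sorted green cones, 14.8 and 10.8 CPM in double-sorted green cones, 0.828 and 1.36 CPM in Nrl-/- photoreceptors, against 0.417 and 0.377 CPM in rods. Over the 90 rod-open elements it was 37.8 and 39.1 CPM in rods, 14.8 and 10.3 CPM in single-sorted green cones, 3.11 and 3.59 CPM in double-sorted green cones, against 1.66 and 1.25 CPM in Nrl-/- photoreceptors. The 319 elements that were neither had medians of 6.59 and 10.0 CPM in single-sorted and 6.22 and 3.59 CPM in double-sorted green cones, against 0.828 and 0.908 CPM in Nrl-/- photoreceptors. In the 439 elements of the Nrl-/- set that were neither, the medians were 10.8 and 11.8 CPM in Nrl-/- photoreceptors and 0.833 to 2.33 CPM in the other 6 libraries. As a class, all 2745 rod-open elements were open in both groups of the comparison. Their median was 26.2 and 27.3 CPM in rods, 12.2 and 10.0 CPM in single-sorted green cones, 9.52 and 9.76 CPM in Nrl-/- photoreceptors, against 4.66 and 5.39 CPM in double-sorted green cones. Their median log2 fold change was 0.16. In sorted populations a larger share of cells with an open element and a more open element per cell cannot be told apart. With every rod-open element left out of the fit, 859 and 480 elements were called.

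**Figure D2:**
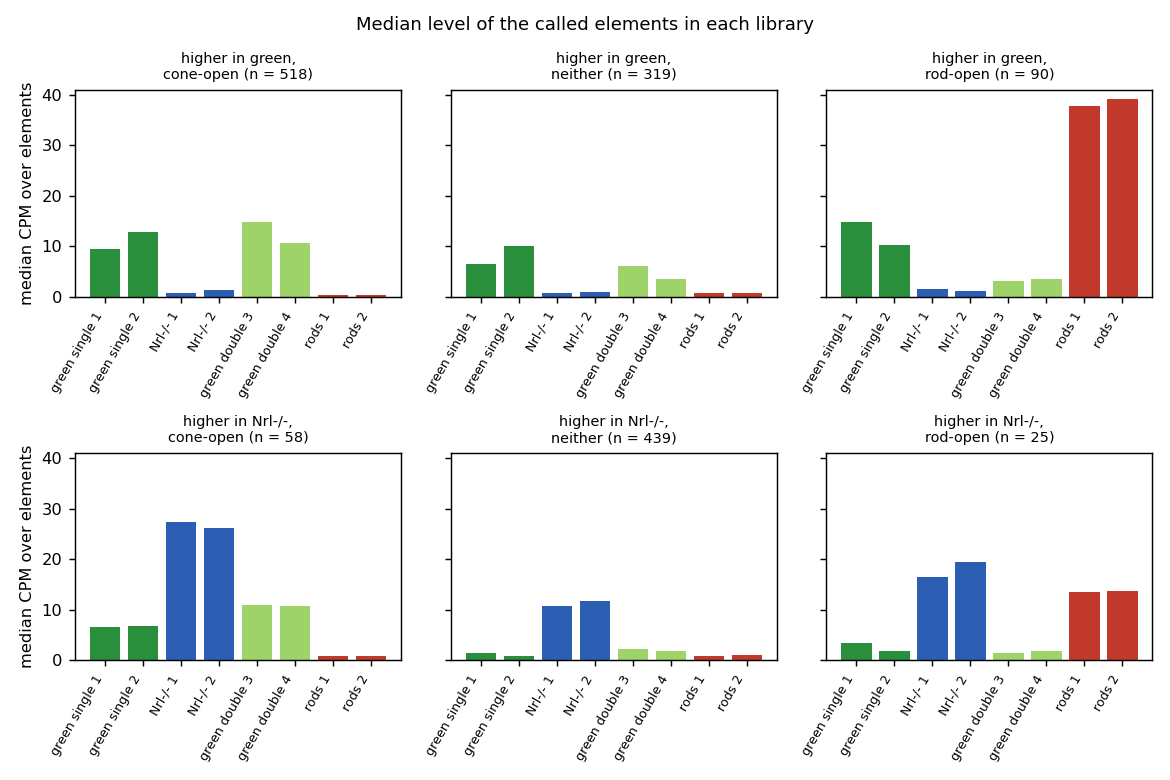
Median CPM over elements (y axis, from 0) in each of the 8 ATAC-seq libraries (bars) for the 6 sets of called elements, with single-sorted green cones in dark green, Nrl-/- photoreceptors in blue, double-sorted green cones in light green and rods in red. In the 518 cone-open elements all 4 green libraries sit at 9.52 CPM or above and the rods below 0.5 CPM, while in the 90 rod-open elements the rods reach 39.1 CPM.

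Elements of rod genes were among the strongest differences, and they were open in rods as well. At the Nrl intron element 2969 bp downstream of a start site, the level was 43.0 and 31.0 CPM in single-sorted green cones, 17.1 and 17.1 CPM in double-sorted green cones, 100 and 107 CPM in rods, and 0 in both Nrl-/- libraries. With a limit of 3 read pairs per library, it was at least 19.2-fold higher in green cones (adjusted p = 3.2e-10). This pattern goes with the genotypes that the labels give for the 8 libraries, green replicate 1 included. Whether the null allele lacks this stretch of DNA is not given in the sources used here. The element 33 bp upstream of an Nrl start site went the other way, with 43.5 and 26.5 CPM in green cones, 125 and 93.5 CPM in Nrl-/- photoreceptors, beside 246 and 252 CPM in rods (log2 fold change -1.57 ± 0.17 SE, adjusted p = 0.016). Reads of the endogenous Nrl promoter and of the Nrl-eGFP transgene, which both rods and Nrl-/- photoreceptors carry, cannot be told apart there. The call at that element was lost without green replicate 2, without Nrl-/- replicate 1 and in the double-sorted cones. With the promoter of Nr2e3, these were the 3 calls among the 66 elements of the rod regulator list (4.55%, beside 2.86% of all elements). The median log2 fold change of that list was 0.12. Of the other Nrl elements, neither the start-site element at chr14:55524182-55524381 (9.60 ± 1.97 CPM in green cones and 24.8 ± 7.11 CPM in Nrl-/- photoreceptors, mean ± SD, n = 2) nor the one 1894 bp upstream (21.3 ± 2.36 and 24.7 ± 0.23 CPM) passed the test.

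Rod phototransduction genes gave 6 of 82 elements more open in single-sorted green cones and none in Nrl-/- photoreceptors, which is 7.32% called beside 2.86% of all elements. Their median log2 fold change was 0.24. The Gnat1 promoter, of the gene for the rod transducin alpha subunit, had 42.5 and 27.8 CPM in green cones, against 0.828 and 0.454 CPM in Nrl-/- photoreceptors. Rods had 126 and 111 CPM there, double-sorted green cones 1.55 and 5.39 CPM. Only 2 read pairs lay in the Nrl-/- libraries, for a ratio of 64.0 with a 95% exact counting interval of 17.3 to 535 (adjusted p = 3.5e-09). The Pde6b promoter, of the rod phosphodiesterase beta subunit, had 18.6 and 15.5 CPM against 0.414 and 1.36 CPM (log2 fold change 4.04 ± 0.53 SE, adjusted p = 9.7e-05). An intron element of Gnb1, the beta subunit of rod transducin, had 30.3 and 25.1 CPM against 2.48 and 1.36 CPM (3.94 ± 0.41 on the log2 scale, adjusted p = 5.9e-06). All of these were highest in rods, at 67.7 CPM or more in each rod library. The groups of the comparison did not overlap. Both Cnga1 elements (the rod channel), the Gnb1 element 4671 bp into the gene and the promoter of Nr2e3, the NRL target that represses cone genes, were called at adjusted p between 0.053 and 0.083. Each lost its call without at least 1 of the libraries. Over the whole list the summed level was 1905 and 1725 CPM in single-sorted green cones, 1570 and 1542 CPM in Nrl-/- photoreceptors, 1108 and 1506 CPM in double-sorted green cones, against 3463 and 3556 CPM in rods. The part of rods in the green sort in these differences was not tested.

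**Figure D3:**
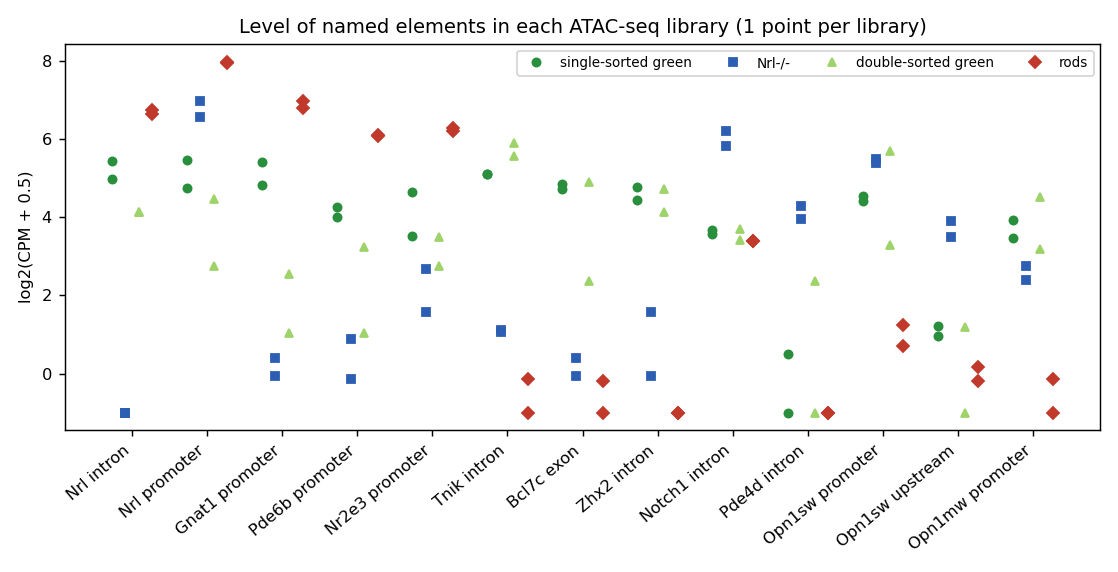
Level of 13 named elements, as log2(CPM + 0.5), in each of the 8 ATAC-seq libraries, 1 point per library. At the Nrl intron and the Gnat1 and Pde6b promoters the rods are highest and the Nrl-/- libraries lowest; at the Tnik, Bcl7c and Zhx2 elements the green libraries are above the rods and Nrl-/- photoreceptors; at the Notch1, Pde4d and Opn1sw upstream elements the Nrl-/- libraries are highest.

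The green-higher elements with the lowest p that were cone-open lay far from start sites, with 1 exception. In an intron of Tnik, 94.1 kb from the nearest start site, that of Slc2a2, the level was 33.9 and 33.7 CPM in single-sorted and 59.1 and 46.7 CPM in double-sorted green cones, 1.66 and 1.59 CPM in Nrl-/- photoreceptors, against 0.417 and 0 CPM in rods (4.36 ± 0.39, adjusted p = 1.1e-07). An element in an exon of Bcl7c had 25.9 and 28.3 CPM in single-sorted green cones against 0.828 and 0.454 CPM, a ratio of 45.6 over 2 read pairs with a counting interval of 12.2 to 382 (adjusted p = 1.1e-07). The exception was the promoter of 4930434J06Rik, with 49.1 and 53.8 CPM in single-sorted and 76.2 and 80.8 CPM in double-sorted green cones against 7.45 and 5.22 CPM in Nrl-/- photoreceptors (3.06 ± 0.27, adjusted p = 1.1e-06). An intron of Zhx2, a homeobox and zinc finger repressor, gave 21.2 and 26.9 CPM against 2.48 and 0.454 CPM (4.26 ± 0.49, adjusted p = 2.5e-05). At 547 kb upstream of Cpeb2, a translation regulator, the level was 16.8 and 24.2 CPM against 0.828 and 0 CPM, or 61 read pairs against 1. Rods had at most 0.417 CPM at each of these 5 elements. The double-sorted libraries, though they ranged from 4.66 to 29.6 CPM at Bcl7c, were above both Nrl-/- libraries throughout.

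The cone regulator list had 1 call among its 78 elements (1.28%, beside 2.86% of all elements). It was nearest to Sall1, a zinc finger factor gene with at most 0.372 CPM of RNA in rods and Nrl-/- photoreceptors. It lay 256 kb upstream and had 7.08 and 15.5 CPM in single-sorted and 20.2 and 8.98 CPM in double-sorted green cones, 0.828 and 0.908 CPM in Nrl-/- photoreceptors and 0 in both rod libraries (adjusted p = 0.0051, lost without green replicate 2). With 3 read pairs in the Nrl-/- libraries the ratio was 11.6 with a counting interval of 3.62 to 59.1. No element of Thrb, Rxrg, Sall3, Six6, Onecut1, Onecut2, Nr2f1 or Nr2f2 was called. In all, 55 green-higher elements had no count in either Nrl-/- library, with lower bounds of 1.96-fold to 19.2-fold (median bound 3.498-fold). The highest after Nrl were intron elements of Iqgap1, a scaffold of the actin cytoskeleton (7.57 and 19.2 CPM, at least 6.95-fold), of Slc20a2, nearest to the start site of Smim19 (9.28 and 17.3 CPM, at least 6.92-fold), and of Clnk (13.2 and 12.8 CPM, at least 6.75-fold). Each of the 3 had reads in both double-sorted green libraries, at 4.49 to 16.2 CPM, and 0.833 CPM or less in rods. These levels are low for such shallow libraries, in which 3 read pairs make 4.66 CPM (replicate 3) and 5.39 CPM (replicate 4). The Iqgap1 element was under that limit in replicate 4, at 4.49 CPM. The Slc20a2 element was at it in replicate 3.

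Among elements called neither rod-open nor cone-open, an intron element of Peli2 had the lowest p, with 33.2 and 32.4 CPM in single-sorted green cones, 22.5 and 23.4 CPM in double-sorted green cones, 48.9 and 49.3 CPM in rods, against 1.66 and 2.27 CPM in Nrl-/- photoreceptors (3.98 ± 0.37, adjusted p = 7.5e-07). It was thus open in the green cone and rod libraries and nearly closed in the Nrl-/- libraries. The element lies on chromosome 14, which also holds Nrl and had 4.31% of its elements called, beside 2.86% of all. The part of DNA linked to the null allele in this difference was not tested. Several genes gathered more than 1 call: the 927 elements were assigned to 768 genes, 122 of which had 2 or more. Those with the most calls are given beside the 1.83% of all elements that were green-higher. Fam189a1 had 6 of its 7 elements more open in green cones (log2 fold changes 3.32 to 7.31), Cpeb2 5 of 8, 1700095B10Rik 5 of 7, Tafa5 5 of 12, Gm41414 5 of 12, Ntm, a neural cell adhesion molecule, 5 of 61, and Spata13 4 of 16.

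Elements more open in Nrl-/- photoreceptors were mostly at low levels in the other sorts. An intron element of Notch1, the receptor that keeps retinal progenitors undifferentiated, had 72.9 and 56.1 CPM in Nrl-/- photoreceptors, 11.5 and 12.3 CPM in single-sorted green cones, 10.1 and 12.6 CPM in double-sorted green cones, against 10.0 and 9.98 CPM in rods (-2.43 ± 0.22, adjusted p = 2.7e-05). All 4 elements assigned to Notch1 were called in this direction, with log2 fold changes from -2.43 to -1.80. The lowest p belonged to an intron of 1700109G14Rik, on chromosome 14 like Nrl. It had 26.5 and 26.3 CPM in Nrl-/- photoreceptors, against 0.488 and 2.74 CPM in green cones (-4.30 ± 0.46, adjusted p = 9.0e-06). An intron of Fam114a2 had 14.9 and 12.7 CPM in Nrl-/- photoreceptors and no count in single-sorted green cones, so that it was at least 6.57-fold higher in Nrl-/- photoreceptors. The distal element in Pde4d, a cAMP phosphodiesterase gene, had 19.0 and 15.0 CPM against 0 and 0.912 CPM, or 56 read pairs against 1. Near Zfp503, a zinc finger repressor, there were 8.28 and 16.3 CPM against none (at least 5.86-fold). Fezf1 encodes a forebrain zinc finger factor, and 127 kb upstream of it there were 9.11 and 13.6 CPM against none (at least 5.41-fold). The Dnah5 element, 372 kb from the start site, had 9.11 and 10.4 CPM in the Nrl-/- libraries and no count in the other 6 (at least 4.65-fold higher than in green cones). Elements assigned to Gm35888, B230323A14Rik, Gm33035 and Gm20745 and to Krt86, a keratin, completed the 10 with the lowest p, at log2 fold changes from -5.51 to -2.39. In total 30 elements had no count in either single-sorted green library, with bounds of 1.65-fold to 6.57-fold and a median of 3.06-fold. Of the 444 genes with a Nrl-/--higher element, 50 had 2 or more. Those with the most calls were Mtus2 with 8 of 21 elements and Epha8, an ephrin receptor, with 5 of 9. Kctd8 had 4 of 5, Mast4 4 of 9, Notch1 4 of 4 and Nrxn3 4 of 18, beside 1.03% of all elements. There were 27 genes with calls in both directions.

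Next came the genes of the cone light response. Cone phototransduction gave no element more open in green cones and 2 of 61 more open in Nrl-/- photoreceptors (3.28%, near the 2.86% called over all elements; median log2 fold change -0.30), and both lay at Opn1sw. The element 7713 bp upstream had 10.8 and 14.5 CPM in Nrl-/- photoreceptors, against 1.47 and 1.82 CPM in single-sorted green cones, with 0 and 1.80 CPM in double-sorted green cones and under 0.7 CPM in rods (-2.97 ± 0.52, adjusted p = 0.0068). The element 7161 bp downstream, in an intron of Calu, had 6.62 and 6.13 CPM against no count (at least 3.04-fold, adjusted p = 0.0023), and 51.0% of its bases are in repeats. Both calls were lost without Nrl-/- replicate 2. The Opn1sw promoter had 44.3 and 41.5 CPM in Nrl-/- photoreceptors, 21.9 ± 1.28 CPM in single-sorted green cones (mean ± SD, n = 2), 9.33 and 51.2 CPM in double-sorted green cones, against 1.87 and 1.13 CPM in rods. Its groups did not overlap in the comparison, but a log2 fold change of -0.98 ± 0.21 did not exceed the 2-fold tested (adjusted p = 1). At the Opn1mw promoter the order was the other way, with 14.7 and 10.5 CPM in single-sorted green cones, 6.21 and 4.77 CPM in Nrl-/- photoreceptors, 8.55 and 22.5 CPM in double-sorted green cones, against 0.417 and 0 CPM in rods. It did not pass the test (1.25 ± 0.41, adjusted p = 0.98). Nor did the Opn1mw element 11649 bp upstream (6.35 and 9.12 against 2.48 and 2.27 CPM, adjusted p = 0.59), which was highest in rods, at 12.9 and 11.5 CPM. Of the remaining opsin elements, the Opn1mw ones 3823 and 3495 bp upstream and the Opn1sw one 15003 bp downstream had log2 fold changes of -0.30 to 0.25. An Opn1sw element 6719 bp downstream had -2.04 ± 0.61 (adjusted p = 0.29). Summed over the cone list, levels were 884 and 986 CPM in single-sorted green cones, 1145 and 1140 CPM in Nrl-/- photoreceptors, 712 and 1156 CPM in double-sorted green cones, against 527 and 509 CPM in rods.

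The other gene lists held few elements, and their counts stand beside the 2.86% called over all elements. No element was called among 35 of shared photoreceptor regulators (Crx, Otx2, Rax, Neurod1, Mef2d), 70 of outer segment genes, 105 of the photoreceptor synapse and 54 of dorsoventral patterning genes, whose median log2 fold changes ran from -0.21 to 0.12. The promoters with the highest mean in these lists, at Mef2d, Rom1, Syt1 and Ephb3, had log2 fold changes of -0.31, 0.10, -0.15 and -0.22. Thyroid hormone and retinoid X receptor genes had 1 of 79 called, an intron of Rxra with 18.2 and 20.4 CPM in Nrl-/- photoreceptors against 3.91 and 2.74 CPM (-2.48 ± 0.40, adjusted p = 0.0068). At Socs3, the feedback inhibitor of JAK-STAT signalling that belongs to the photoreceptor injury list, 2 elements were more open in Nrl-/- photoreceptors, the nearer with 19.5 and 11.8 CPM against 2.44 and 0 CPM (-3.30 ± 0.56, adjusted p = 0.0034). The farther had 11.6 and 7.04 CPM against 1.47 and 0.912 CPM. Serpina3n, of the same list, went the other way (6.35 and 24.2 against 1.66 and 3.63 CPM, adjusted p = 0.076), so that 3 of 27 elements of the list were called. The nuclear lamina and envelope list had 1 call each way in 66 elements, at Syne1 (green-higher and highest in rods) and near Lemd2 (Nrl-/--higher). The immediate early list had 1 in 100, near Dusp1 (13.7 and 11.9 against 3.31 and 2.50 CPM, adjusted p = 0.075), where rods were highest, at 17.5 and 20.7 CPM. Of these single calls, those at Serpina3n, Syne1, Lemd2, Dusp1 and the farther Socs3 element were lost without at least 1 library.

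Markers of other retinal cells, again beside 2.86% over all elements, gave no call in 42 elements of bipolar cells, 27 of Müller glia, 11 of ganglion cells, 8 of endothelial cells and pericytes and 12 of the retinal pigment epithelium. The summed bipolar level was 474 and 473 CPM in single-sorted green cones, against 599 and 660 CPM in Nrl-/- photoreceptors, and that of Müller glia 429 and 450 against 519 and 509 CPM. Amacrine markers had 2 of 23 elements more open in green cones, an element 20.8 kb from Calb2 (25.1 ± 5.89 against 2.83 ± 0.49 CPM, mean ± SD, n = 2; adjusted p = 0.00014 by edgeR) and the start of Chat (11.5 and 7.30 against 2.48 and 1.36 CPM, lost without green replicate 1 or Nrl-/- replicate 2). The Calb2 element was also open in double-sorted green cones, at 34.2 and 20.7 CPM. The horizontal and microglia lists each had 1 element more open in Nrl-/- photoreceptors, at Prox1 (7.45 and 15.0 against 0.977 and 3.65 CPM, 1 of 8 elements) and 27.1 kb from C1qa (11.6 and 17.3 against 2.93 and 4.56 CPM, 1 of 14), both lost without at least 1 library. Summed microglia levels were 169 and 187 CPM in green cones, 231 and 240 CPM in Nrl-/- photoreceptors, against 207 and 234 CPM in rods. The part of other cells in the results was not tested.

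Called elements and the rest differed in how often they held some short motifs. Each motif was searched on both strands of the 200 bp, and shares are given beside those over all 50605 elements. TGANTCA occurred in 264 of the 927 green-higher elements (28.5%), in 4.41% of the Nrl-/--higher and in 6.22% of all elements. Most of that was TGACTCA, the letters bound by AP-1 and MAF family dimers, at 24.8%, 1.72% and 4.57%, whereas TGAATCA was in 4.85%, 2.87% and 1.77%. The share was 28.8% in the cone-open, 32.3% in the neither and 13.3% in the rod-open green-higher elements, beside 11.4% of all cone-open and 5.25% of all rod-open elements. Within the neither set it was 19.5% of the 133 elements tested for rods against double-sorted green cones and 41.4% of the 186 too low to be tested. AGGTCA was in 33.5% of the green-higher, 15.3% of the Nrl-/--higher and 14.7% of all elements, and in 32.0% to 34.7% of each of the 3 kinds of green-higher element. In the tested and untested parts of the neither set it was in 39.1% and 26.9%. TAATTA had the opposite pattern, with 20.5% of the Nrl-/--higher, 3.45% of the green-higher and 4.64% of all elements. Seen the other way, 8.39% of elements with TGANTCA were green-higher against 1.40% of those without it, and 4.56% of elements with TAATTA were Nrl-/--higher against 0.86% of those without. Outside promoters, the shares were 29.4% of 888 green-higher against 7.60% of 36804 elements for TGANTCA, and 34.3% against 17.4% for AGGTCA. Both helix-loop-helix motifs were more frequent in called elements of each direction (CATATG in 3.99% and 6.70% beside 2.46%, CATCTG in 22.2% and 25.3% beside 15.2%). The other letters differed less: CTAATCC, bound by CRX and OTX2, was in 10.8%, 7.66% and 7.65%, TGCTGAC in 6.04%, 3.64% and 3.98%, CAGCTG in 18.8%, 16.9% and 14.8%, and ACAAAG of SOX factors in 14.9%, 14.4% and 11.9%. A match is a description of the letters and not a bound site, TGACTCA is contained in TGANTCA, and called elements differed from the rest in GC content.

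**Figure D4:**
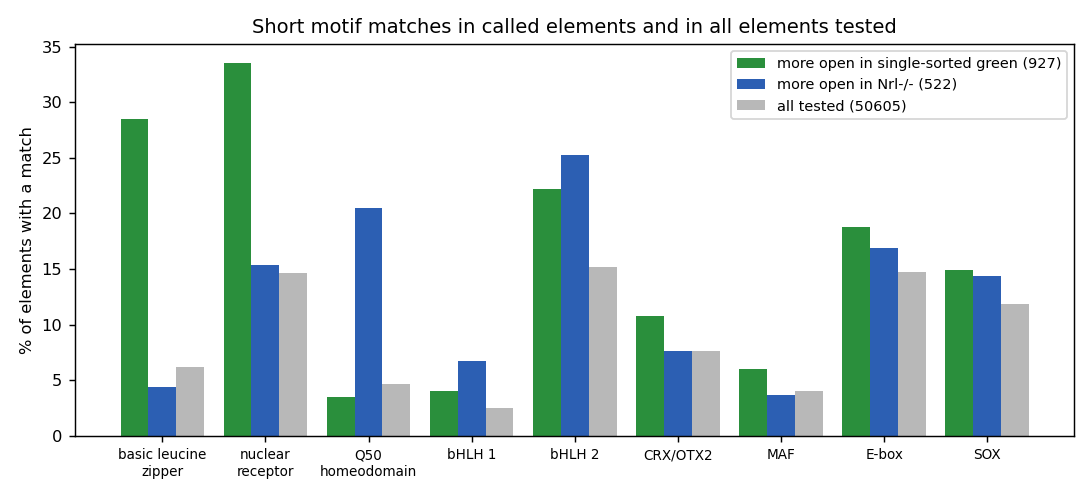
Share of elements (y axis, %) with a match to each of 9 motifs in elements more open in single-sorted green cones (green), in those more open in Nrl-/- photoreceptors (blue) and in all tested (grey); bHLH 1 is CATATG and bHLH 2 CATCTG. The basic leucine zipper letters reach 28.5% in the green set and the Q50 homeodomain letters 20.5% in the Nrl-/- set.

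Called elements lay away from promoters, in intermediate or low GC content and at low levels. Promoters (1000 bp upstream to 100 bp downstream of a start site) were 4.21% of the green-higher and 9.20% of the Nrl-/--higher elements beside 27.3% of all. Among the green-higher elements they made up 14.4% of the rod-open and 1.93% of the cone-open ones, beside 21.5% of all rod-open and 9.94% of all cone-open elements. The median distance to a start site was 27905 bp and 37607 bp beside 8156 bp, and 55.3% and 48.7% lay in introns beside 43.3%. The median GC content was 50.5% in green-higher and 45% in Nrl-/--higher elements beside 53.5%. Elements were also put in 5 bins of equal size. In the bin with the lowest GC (29.0% to 46.5%), 314 of the 522 Nrl-/--higher calls were made and 215 of the 927 green-higher ones. A loess correction against GC left 870 of the green-higher and 465 of the Nrl-/--higher calls in place. The part of GC content in the calls was not tested. By level, the lowest bin (1.74 to 5.15 CPM) had 412 green-higher and 164 Nrl-/--higher calls and a median log2 fold change of 0.22, whereas the highest bin had 11 and 29 calls and a median of -0.07. The peak lists were called from these same libraries, and an element was matched to a list if a peak summit lay within it. Of the green-higher elements, 92.7% held a summit of single-sorted green cones, 62.6% one of double-sorted green cones, 16.0% one of rods and 5.93% one of Nrl-/- photoreceptors. Of the Nrl-/--higher elements, 99.8% held a summit of a Nrl-/- peak and 19.9% one of a single-sorted green peak.

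**Figure D5:**
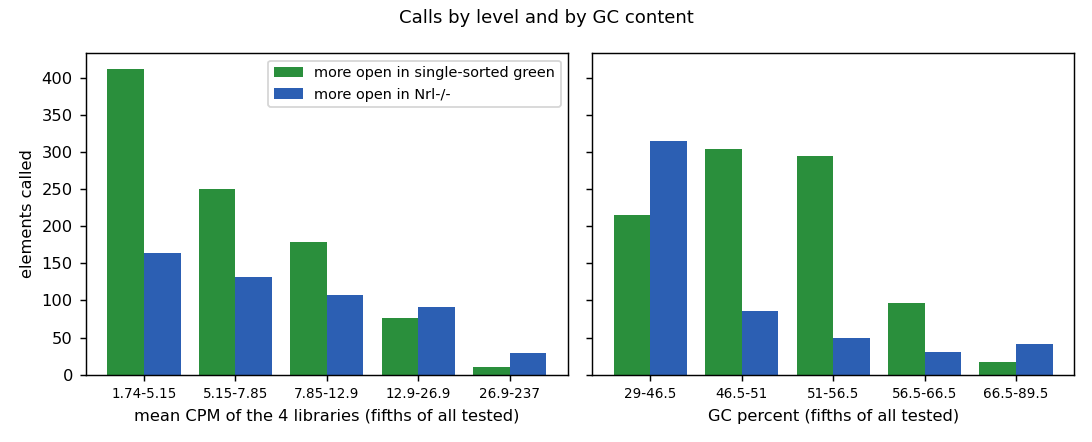
Number of called elements (y axis) in 5 bins of equal size of all elements tested, by mean CPM of the 4 libraries (left) and by GC percent (right), with green bars for single-sorted green cones and blue bars for Nrl-/- photoreceptors. Green-higher calls come down from 412 in the lowest to 11 in the highest bin of level, and 314 of the Nrl-/--higher calls fall in the bin with the lowest GC.

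RNA was measured in rods and Nrl-/- photoreceptors but not in green cones, so the gene nearest to each element could be read in that contrast alone. By the same edgeR test at an adjusted p under 0.05, 2483 of 12327 genes (20.1%) were called, with 848 (6.88%) higher in rods and 1635 (13.3%) higher in the Nrl-/- libraries. Counted per element, so that a gene may count more than once, 144 of 306 Nrl-/--higher elements with a tested gene (47.1%) had one that was higher in Nrl-/- RNA, beside 17.3% over all elements. Fezf1 was among them (0.102, 0.105 and 0.056 CPM for rods against 12.9, 14.4 and 13.3 CPM in Nrl-/- photoreceptors; adjusted p = 9.0e-09), as was Socs3 (0.211 to 1.23 against 26.9 to 38.7 CPM, adjusted p = 3.1e-07). Notch1 was not called, at 28.1, 29.1 and 37.2 CPM against 85.0, 63.8 and 46.6 CPM (adjusted p = 0.53). Among the green-higher elements the 3 kinds differed in their genes. The rod-open ones had 53 of 81 genes higher in rods (65.4%, beside 24.2% of all rod-open and 8.84% of all elements) and none higher in Nrl-/- photoreceptors (6.36% of all rod-open elements), with a median log2 fold change, rods over Nrl-/-, of 1.98. For the cone-open ones, rod RNA was higher for 25 of 264 (9.47%) and Nrl-/- RNA for 83 (31.4%), although these elements were nearly closed in both cell types. For the 319 that were neither, rod RNA was higher for 26 of 215 (12.1%) and Nrl-/- RNA for 42 (19.5%), beside 8.84% and 17.3% over all elements. This set pools unlike parts. Where rods were tested against double-sorted green cones without a call, the shares were 22.6% and 12.3% of 106 elements. Where counts were too low for that test, they were 1.83% and 26.6% of 109. Among all cone-open elements the share with a gene higher in Nrl-/- RNA was 45.5%. Genes of several of the strongest green-higher elements had little RNA in either cell type: Slc2a2 was at 0 in all 6 libraries, and Bcl7c, Clnk and Sall1 stayed at 0.819 CPM or less.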

How the data were processed

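ATAC-seq elements and RNA-seq genes were analysed as raw counts, which the authors deposited. They had mapped ATAC-seq reads to GRCm38 (mm10) using Bowtie2 2.2.3, kept inserts under 100 bp without duplicates (SAMtools 1.3, Picard 1.121), called peaks using MACS2 2.1.0 and counted over elements using bedtools 2.24.0. STAR 2.4.2a and HTSeq 0.6.1p1 made the RNA counts. The peak lists the authors deposited give fold enrichment as a ratio per peak; only positions were used. RNA counts without a gene (41.3% to 49.2% of a library) were left out.

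Counts were scaled by TMM, kept by filterByExpr and tested with glmTreat of edgeR 4.0.16 at a log2 fold change of 1; the authors used DESeq2, tried here as an alternative. The model held no block, because replicate numbers are not stated to mark a shared animal or day. In ATAC-seq, r was 0.01 between the replicate differences of both groups over elements. In RNA, libraries with equal numbers had r of 0.20, 0.10 and 0.02 between their deviations from the group means. The SE is the fold change over the root of its F statistic. On data simulated for the 4 libraries with 49018 elements, 91.9% of changes of 3 and 41.7% of changes of 2 on the log2 scale were called. ATAC-seq totals ran from 1062403 to 5770075 counts; limits of 3 read pairs (6 counts) and intervals cover counting error only. Elements were assigned to the nearest of 30419 RefSeq start sites. Members and the 20 gene lists were chosen with earlier results of these data known. Named are all elements of Nrl, Opn1sw and Opn1mw, the 10 with the lowest p per direction (groups not overlapping, higher mean at least 5 CPM), called list members or else the list's highest promoter, and called elements with no count in a group. Departing from that rule after values were seen, the text names only the 4 of the last kind with the highest bound per direction and adds called list members beyond 4 per list. Some elements that meet the rule, and 1 gene of the rod phototransduction list, are not reported here.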

Additional observations from a re-analysis of the deposited data

How the results depend on the processing

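In the comparison of single-sorted green cones with Nrl-/- photoreceptors, 1449 elements were called. The count was 8806 (4562 and 4244) against a fold change of 0, 149 (96 and 53) with DESeq2, 402 (284 and 118) with all 8 libraries in 1 fit, 929 (570 and 359) with all libraries thinned to the smallest total, and 17 (16 and 1) with the shallower double-sorted cones in place of the single-sorted (against the same Nrl-/- libraries), where 1865 and 1154 elements had an unadjusted p under 0.05. Thinning was random: 5 further draws, added after the result was seen, gave 573 to 710 and 340 to 379. Loess against abundance gave 400 and 731, keeping 398 of the green-higher and 497 of the Nrl-/--higher elements. Leaving out 1 library gave 424 to 801 green-higher, 191 to 496 Nrl-/--higher and 840 to 1227 elements in all, and none of the elements called was called in the opposite direction under any alternative. The replicate block gave 930 and 519, and changed no count by over 1.5 times; in RNA it gave 873 and 1642 genes. For rods against double-sorted green cones DESeq2 called 552 and 4410 (4962 in all), and leaving out 1 library gave 978 to 8006, 4464 to 9025 and 5515 to 17031. RNA calls ranged from 741 to 1074, 1509 to 1716 and 2250 to 2790 without 1 library. Of the 44 called elements named, 28 kept their call in every leave-one-out fit that tested them; DESeq2 lost 19, the fit of all 8 libraries 17, the block 6 and the double-sorted cones 28.

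Directions turned at these named elements, none of which was called. Opn1mw 3823 bp upstream had log2 fold changes of 0.024 with library totals, 0.026 with loess against abundance, 0.071 against GC content, 0.031 with the block, 0.021 when thinned and 0.011 without rod-open elements, and Kdr 0.080 when thinned. With double-sorted cones Rom1 had -1.04, Syt1 0.061, Glul 0.48, Mitf 0.28 and Opn1sw 6719 bp downstream 0.14. Leaving out 1 library gave -0.21 to 0.31 for Rom1, -0.0093 to 0.26 for Prkca, -1.26 to 0.30 for Kdr, -0.20 to 0.090 for Mitf, -0.40 to 0.61 for Opn1sw 15003 bp downstream, and -0.26 to 0.38 and -0.73 to 0.13 for Opn1mw 3823 and 3495 bp upstream. The causes were not tested.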

Other observations

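Among the chromosomes, 14, which holds Nrl, had 87 of 2018 elements called (4.31%) beside 2.86% of all elements, and X had 8 of 840 (0.95%). On Y, 2 of 12 elements were called, both near G530011O06Rik and more open in green cones (23.0 and 19.6 against 1.24 and 1.82 CPM, and 15.1 and 6.84 against 0.828 and 2.27 CPM). They were also covered in double-sorted green cones, at 10.9 to 30.5 CPM, and less in rods, at 3.12 to 9.98 CPM. Reads of repeated Y sequence may be split between copies, so these values are uncertain. The paper used male mice except where it notes otherwise. The part of the sex of the pooled mice in this difference was not tested.

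A pair of AGGTCA sites in the same direction with the spacing bound by thyroid hormone receptors was found in 16 elements tested. Of these, 4 were more open in green cones and none in Nrl-/- photoreceptors, beside 1.83% and 1.03% of all elements. It had the largest green-higher share among the spacings searched, from 0 to 5 bp. At the others, from the shortest up, 1 of 9, 0 of 14, 1 of 9, 0 of 5 and 0 of 3 elements were green-higher and none was Nrl-/--higher. With so few elements these counts are a description.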
